A study of Danio rerio with 28 samples.

Results

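The guts of wild type zebrafish larvae raised germ-free (axenic, without microbes) were compared with the guts of wild type larvae raised conventionally, with a microbiota. The comparison holds 8 of the 28 RNA-sequencing libraries of the series, which are the 4 titled as wild type germ-free and the 4 titled as wild type conventional, and both groups carry functional il22. The series, by its title, asks how interleukin-22 made by enteroendocrine cells, the microbiota and gut motility are connected in early life. Its second experiment (20 libraries in 5 groups of 4) also holds il22 knockout guts under conventional, germ-free and co-housed rearing. Levels and effects in the 8 conventional and germ-free knockout libraries are given only where the effect of rearing is compared between genotypes. All 20 libraries were fitted together, so the knockout and co-housed libraries also entered the gene filter and the estimate of spread behind the wild type tests. All larvae were 7 days post-fertilization, and each library was made from a pool of 10 to 15 dissected guts, so the spread described here is between pools and not between single animals. The labels give no strain, clutch, time of dissection, feeding or processing batch, and do not say how the absence of microbes was checked.

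In zebrafish larvae the intestine is colonised after hatching, and the microbiota is known to reach epithelial turnover, innate immune tone, lipid uptake and the peripheral clock. Enterocytes of the anterior gut take up lipid and amino acids and digest peptides at their brush border. Lysosome-rich enterocytes of the mid-gut take up whole proteins. A dissected gut also carries smooth muscle, enteric neurons, immune cells and, unless it is trimmed away, pieces of liver, pancreas and body wall, and in such bulk RNA fewer cells of a type and less RNA per cell cannot be told apart.

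Depth was similar in both groups, at 26434650 to 30891742 counts per conventional library and 23920250 to 30997846 per germ-free library. Levels are given below as CPM (a gene's counts divided by the scaled library size and multiplied by 1000000), always in the order of libraries 1 to 4 of a group, and log2 fold changes as germ-free over conventional ± an approximate standard error (SE). A gene was called where its Benjamini-Hochberg adjusted p, from edgeR's quasi-likelihood test over all 11254 genes tested, was under 0.05. Of these, 2838 (25.2%) were called, 1357 higher in germ-free guts (12.1%) and 1481 lower (13.2%). Shares of list members given below are to be read beside these shares of all genes. List counts under other settings, described below, have other shares of all genes beside them. Called in either direction were 36.6% without conventional library 4 and 16.1% without the libraries high in skeletal muscle RNA. With liver and pancreas scores as 2 covariates the share was 5.83%. With the 2 wild type groups fitted alone, 1270 genes were called. In 1925 genes (17.1%) the 4 values of one group did not overlap the 4 of the other, 1031 of them higher and 894 lower in germ-free guts. Most calls were of small changes: the median absolute log2 fold change of a called gene was 0.48, and 110 of the called genes rose and 239 fell more than 2-fold. The median over all genes tested was -0.0018.

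Before the genes are described, the libraries need an account. Conventional library 4 stood apart from the other 3 conventional libraries and nearer the germ-free ones. To measure this, each of the 8 libraries was left out of the fit in turn, and its level of every gene called without it was placed on a scale on which 0 is the mean of the other 3 libraries of its own group and 1 the mean of the 4 libraries of the other group. The median place of conventional library 4 was 0.795 over 4146 genes, and 70.7% of these genes lay nearer the germ-free mean. For the other 7 libraries the median place ran from -0.22 to 0.173, and the share of genes nearer the other group from 2.66% to 22.3%. Without conventional library 4, 4154 genes were called in place of 2838, of which 2324 were higher and 1830 lower, and 2727 calls were shared. Without conventional library 3 the number was 1695. Because the library labelled conventional 4 cannot be reassigned, the values with all 8 libraries are given as the result and those without it beside them. Leaving out the conventional library nearest the germ-free ones widens the gap between the groups for most of these genes. Calls gained without it here and below were therefore partly built in and are no further support.

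**Figure D1:**
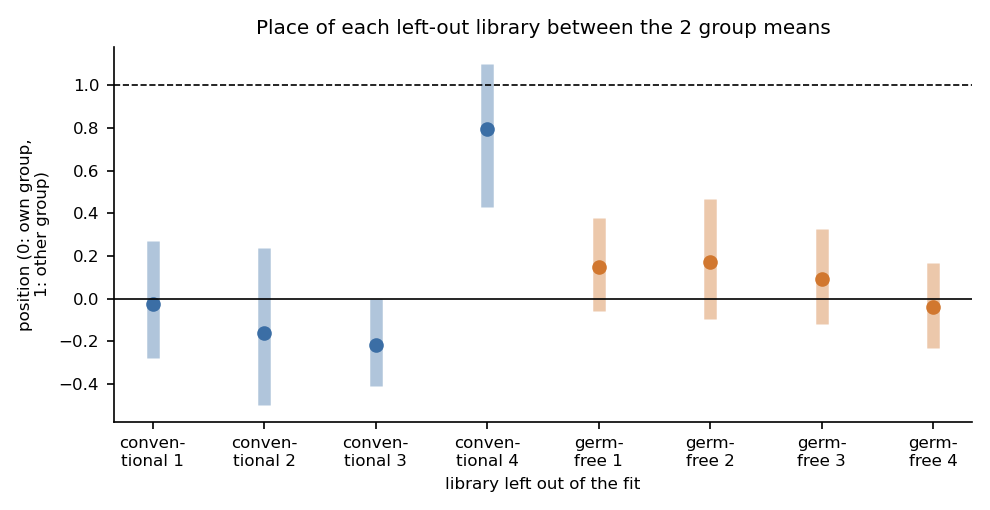
Place of each wild type library, left out of the fit, on a scale (y axis, no unit) from the mean of the other libraries of its own group (0) to the mean of the other group (1), over the genes called without it. Points are medians over genes and bars run from the lower to the upper quartile. Conventional library 4 has a median of 0.795, and the other 7 libraries lie between -0.22 and 0.173.

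RNA of neighbouring tissues also differed. The 30 tested liver markers had a mean log2 CPM of 3.13, 3.2, 3.08 and 4.16 in the conventional libraries and 1.87, 3.02, 1.21 and 1.42 in the germ-free ones, without overlap. Their summed level was 754 to 979 CPM and 466 to 597 CPM. A large part of these sums comes from the member rbp4, whose levels are given with the retinoid genes below. One member rose (3.33%), 3 fell (10%) and 26 did not pass, shares below those of all genes, and the median log2 fold change of the list was -2.06. The hepatocyte lipid carrier fabp10a stood at 15.5, 18, 11.1 and 29.2 CPM and 10.4, 14.5, 9.83 and 12.7 CPM and did not pass (log2 fold change -0.64 ± 0.42, adjusted p = 0.285). Exocrine pancreas markers pointed the other way, with summed levels of 45060 to 89630 CPM in conventional and 77800 to 139900 CPM in germ-free libraries. Of the 31 tested, 7 rose (22.6%) and 24 did not pass, at a median of 0.72. The elastase gene cela1.1 was at 32, 24.6, 21 and 42.6 CPM and 117, 193, 86.6 and 102 CPM (log2 fold change 2.05 ± 0.31, adjusted p = 0.000445), although reads of the cela1 copies may have been split between them, and the bile-salt lipase cel.1 rose 2.39-fold (adjusted p = 0.0115). Skeletal muscle markers were high in conventional library 1 (mean log2 CPM 5.43) and germ-free library 2 (4.80) and at most 2.25 in the other 6. With the liver and pancreas scores as 2 covariates of the fit, 656 genes were called, 598 of them among the 2838. Since the liver scores of the groups do not overlap, that fit removes tissue content and rearing together. With the mean of the 2 scores as 1 covariate, chosen after seeing the data, 2751 genes were called, 2553 of them among the 2838. The 2 scores moved in opposite directions between the groups, so they partly cancel in that mean. The part of the tissues in the result was not tested further.

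**Figure D2:**
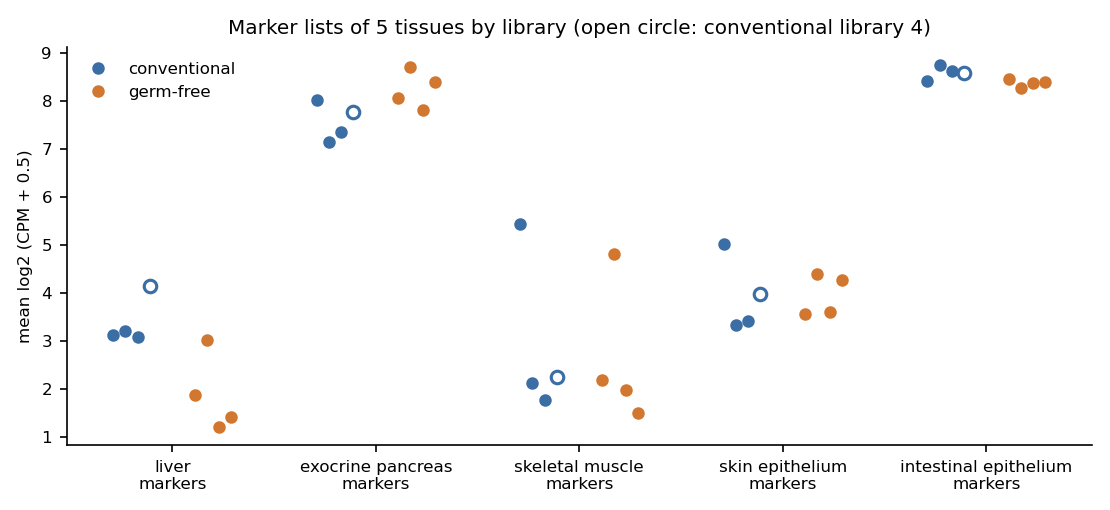
Mean log2 (CPM + 0.5) over the tested markers of 5 tissues (y axis) in each of the 8 wild type libraries, with conventional libraries in blue, germ-free libraries in orange and conventional library 4 as an open circle. Liver markers do not overlap between the groups, and skeletal muscle markers are high in conventional library 1 (5.43) and germ-free library 2 (4.80).

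Several of the largest falls, and the smaller fall of blvra, held with conventional library 4 included. crtac1a, which encodes a secreted matrix protein, was at 137, 135, 118 and 130 CPM in the conventional libraries and at 6.89, 4.54, 9.04 and 10.1 CPM in the germ-free ones. The lowest conventional value is far above the highest germ-free value, a 16.9-fold fall (log2 fold change -4.08 ± 0.18, adjusted p = 1.15e-10). ptgdsb.1, a lipocalin-type prostaglandin D synthase, was at 177, 135, 84 and 99.8 CPM and 3.69, 12.1, 7.7 and 8.53 CPM. It fell 15.4-fold (log2 fold change -3.95 ± 0.4, adjusted p = 1.65e-05), without overlap. dhrs12, an oxidoreductase of the short-chain dehydrogenase family, was at 80.8, 98, 86.2 and 59.7 CPM and 21.2, 17.7, 15.1 and 15.4 CPM, a log2 fold change of -2.23 ± 0.17 (adjusted p = 1.97e-07). tsku, a secreted proteoglycan, fell 4.66-fold (log2 fold change -2.22 ± 0.25, adjusted p = 4.03e-05). Biliverdin reductase, blvra, which acts in heme breakdown, was at 7.08, 7, 7.48 and 6.54 CPM and 2.77, 2.63, 3.08 and 3.24 CPM, a 2.39-fold fall (adjusted p = 8.93e-06). The groups did not overlap for any of these genes, and their log2 fold changes without conventional library 4 (-4.05, -4.01, -2.32, -2.38 and -1.26) differed little from the values with it.

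**Figure D3:**
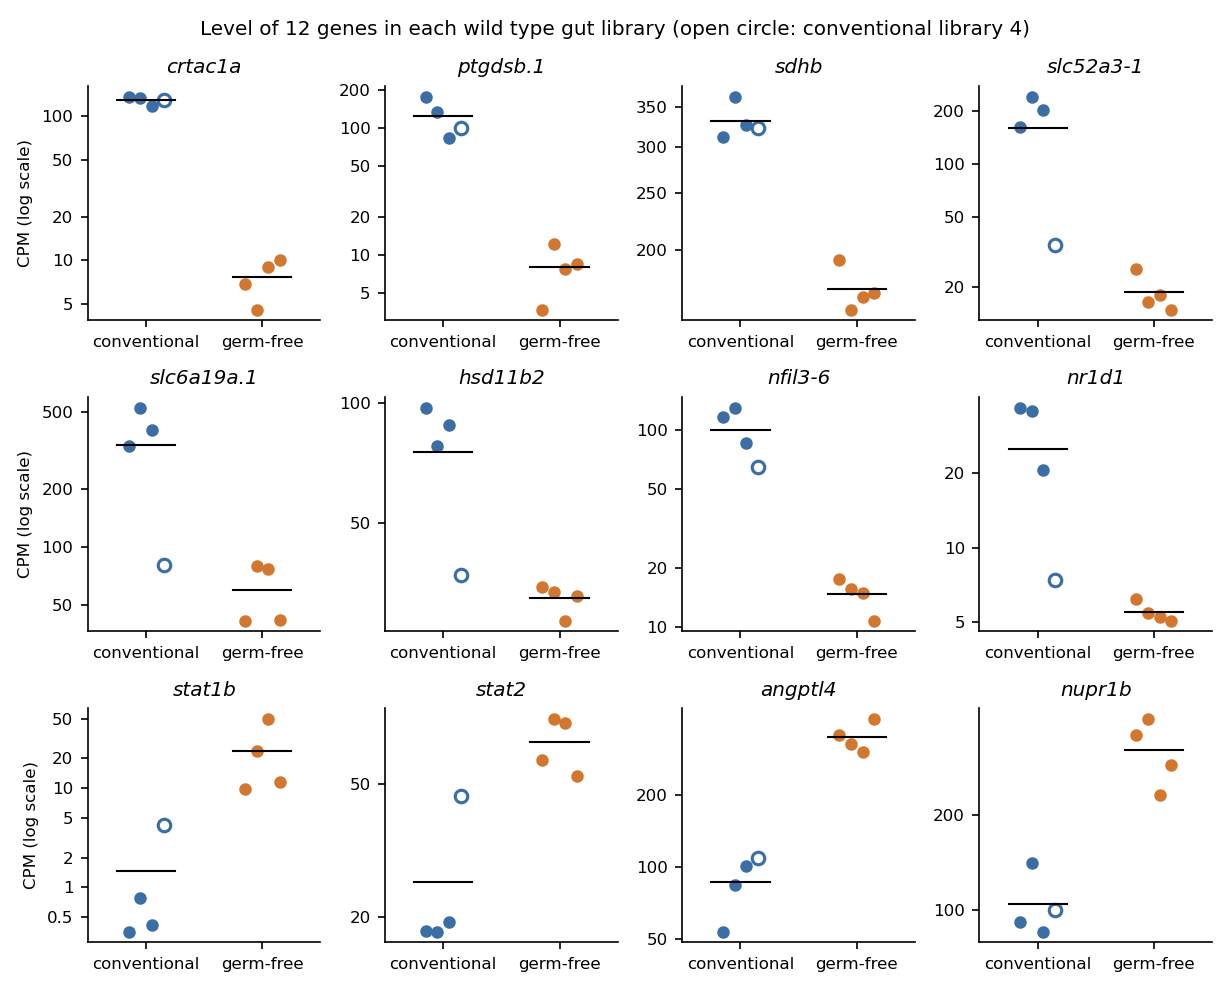
CPM (y axis, log scale) of 12 genes in each wild type gut library, by rearing, with the group mean as a bar and conventional library 4 as an open circle. For crtac1a, ptgdsb.1 and sdhb the open circle lies with the other conventional libraries, and for slc52a3-1, slc6a19a.1, hsd11b2 and nr1d1 it lies beside the germ-free ones.

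Genes of the mitochondrial respiratory chain that passed were mostly lower in germ-free guts. Among 85 tested oxidative phosphorylation subunits 27 fell (31.8%), 2 rose (2.35%) and 56 did not pass, at a median log2 fold change of -0.16, and in the fit without conventional library 4 the numbers were 25 and 2. With the tissue covariates 5 fell. The strongest was sdhb, the iron-sulfur subunit of succinate dehydrogenase (complex II), at 312, 365, 327 and 323 CPM and 192, 158, 166 and 169 CPM. Every germ-free library was below every conventional one and the spread was small (log2 fold change -0.95 ± 0.063, adjusted p = 2.54e-08). Its partner sdha, the flavoprotein subunit, was at 535, 671, 589 and 565 CPM and 434, 402, 394 and 451 CPM (log2 fold change -0.49 ± 0.067, adjusted p = 0.000152). ndufv1, a flavoprotein subunit of complex I, fell 1.54-fold (log2 fold change -0.62 ± 0.069, adjusted p = 2.04e-05), cyc1, cytochrome c1 of complex III, fell 1.44-fold (log2 fold change -0.52 ± 0.057, adjusted p = 1.65e-05), and uqcrfs1, the Rieske protein of complex III, fell 1.42-fold (adjusted p = 0.00204). Conventional library 4 lay with the other conventional libraries for sdha, sdhb, cyc1 and ndufv1. The call of uqcrfs1 ended with the liver and pancreas covariates, and those of the other 4 did not.

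Fatty acid oxidation and fasting genes fell in 15 (32.6%) and rose in 3 (6.52%) of 46 cases, and 28 did not pass, with a median of -0.16. Leaving out conventional library 4 gave 14 and 8, and with the tissue covariates 2 and 2. acads, the short-chain acyl-CoA dehydrogenase, was at 18.8, 20.8, 24.5 and 23.6 CPM and 15.2, 14.9, 15.3 and 14.8 CPM (log2 fold change -0.55 ± 0.086, adjusted p = 0.000403). The trifunctional protein subunits hadhaa and hadhb changed by -0.67 ± 0.13 and -0.43 ± 0.089 on the log2 scale, and etfa, which passes electrons from these dehydrogenases to the respiratory chain, by -0.26 ± 0.053 (adjusted p = 0.00183, 0.00261 and 0.00246). The calls of hadhaa, hadhb and etfa ended with the tissue covariates. higd1a, a small hypoxia-inducible protein of the inner mitochondrial membrane, was at 39.3, 40.1, 46.5 and 14.2 CPM and 7.2, 9.35, 5.05 and 7.24 CPM, with conventional library 4 between the other conventional and the germ-free libraries (log2 fold change -2.28 ± 0.46, adjusted p = 0.00257). Among the 3 that rose was angptl4, a secreted inhibitor of lipoprotein lipase that the microbiota is known to hold down in mouse and zebrafish gut. It was at 53.5, 84.1, 101 and 109 CPM and 360, 329, 304 and 420 CPM, without overlap, a 4.06-fold rise (log2 fold change 2.02 ± 0.46, adjusted p = 0.00532).

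Transporters of the enterocyte surface held some of the largest falls, and here conventional library 4 was low. slc52a3-1, a riboflavin transporter, was at 162, 242, 202 and 34.9 CPM and 25.5, 16.4, 18.1 and 14.9 CPM. Conventional libraries 1 to 3 were far above every germ-free library, and library 4 was only just above them (log2 fold change -3.10 ± 0.51, adjusted p = 0.000818; without library 4 the log2 fold change was -3.40). slc6a19a.1, the neutral amino acid transporter of the brush border, was at 334, 528, 405 and 80.7 CPM and 41.5, 79.5, 77.1 and 41.8 CPM, with the same arrangement (log2 fold change -2.49 ± 0.5, adjusted p = 0.00258; -2.78 without library 4). slc16a6b, of the monocarboxylate transporter family, was at 97.9, 135, 113 and 18.6 CPM and 15.4, 16.9, 17.6 and 13.4 CPM (log2 fold change -2.53 ± 0.47, adjusted p = 0.00159; -2.83 without library 4). These are the same 3 high libraries in each case. The call of slc6a19a.1 ended with the tissue covariates. Of all 23 tested amino acid and peptide transporters 6 fell (26.1%), 2 rose (8.7%) and 15 did not pass. The risers were slc1a4, a neutral amino acid exchanger, at 7.95, 4.58, 6.01 and 9.34 CPM and 26.1, 41.2, 10.6 and 24.8 CPM (log2 fold change 1.88 ± 0.38, adjusted p = 0.00267), and slc3a2a, the heavy chain of several exchangers (log2 fold change 0.39 ± 0.095, adjusted p = 0.00709). Besides slc6a19a.1, those that fell were slc1a5, slc3a2b, slc43a2a, slc43a2b and slc7a6.

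Among 43 tested genes of gluconeogenesis, glycolysis and glycogen 12 fell (27.9%), 2 rose (4.65%, fbp1a and pfkfb1) and 29 did not pass, at a median of -0.26. The fit without conventional library 4 gave 12 and 4, and with the tissue covariates 5 and 2. g6pc1a.2, a glucose-6-phosphatase that releases free glucose, was at 2514, 2797, 2788 and 1451 CPM and 1113, 929, 1119 and 795 CPM (log2 fold change -1.27 ± 0.19, adjusted p = 0.000387). The groups did not overlap, and library 4 was the lowest of the conventional ones. slc5a1, the sodium-glucose cotransporter of the brush border, fell 1.87-fold (log2 fold change -0.90 ± 0.15, adjusted p = 0.000522), and pck2, the mitochondrial phosphoenolpyruvate carboxykinase, fell 1.75-fold (log2 fold change -0.81 ± 0.15, adjusted p = 0.00144). pygl, the liver form of glycogen phosphorylase, was at 12.3, 16.1, 19.5 and 12.5 CPM and 2.11, 2.25, 0.158 and 0.348 CPM (log2 fold change -3.64 ± 1.2, adjusted p = 0.0335), beside the liver marker levels given above. Its call ended without any one of conventional libraries 2 and 3 or germ-free libraries 1, 3 and 4.

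Digestive and structural genes of the brush border were lower where they passed. Of 21 tested, 9 fell (42.9%), at a median of -0.26, and 12 did not pass. Without the muscle libraries 6 fell and with the tissue covariates 1. The aminopeptidase anpepb.1 was at 3840, 4961, 4244 and 3114 CPM and 2411, 2259, 2687 and 2489 CPM, without overlap (log2 fold change -0.71 ± 0.1, adjusted p = 0.000181). The aminopeptidase enpep and the neutral ceramidase asah2 changed by -0.39 ± 0.084 and -0.60 ± 0.12, and the alkaline phosphatase alp3 by -0.44 ± 0.12 (adjusted p = 0.00345, 0.0021 and 0.0109), and these 3 calls ended with the tissue covariates. cdh17, an intestinal cadherin, fell 1.47-fold (log2 fold change -0.55 ± 0.078, adjusted p = 0.00017), while the intestinal transcription factor cdx1b rose 1.52-fold (log2 fold change 0.60 ± 0.12, adjusted p = 0.00179) with conventional library 4 inside the germ-free range. Of the 25 tested markers of the intestinal epithelium 8 fell (32%), 2 rose (8%) and 15 did not pass, at a median of -0.24. With the tissue covariates it was 2 and 1.

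Lysosomal genes, many of them abundant in lysosome-rich enterocytes, were mostly lower where they passed. Of 42 tested 18 fell (42.9%), 1 rose (2.38%) and 23 did not pass, at a median of -0.27. Members lower without overlap numbered 14, beside 894 of all 11254 genes. Without conventional library 4 the numbers were 15 and 3, and without the libraries that carried skeletal muscle RNA they were 6 and 0. The protease ctsc was at 288, 309, 299 and 283 CPM and 228, 161, 210 and 200 CPM (log2 fold change -0.56 ± 0.11, adjusted p = 0.00209). man2b1, the lysosomal alpha-mannosidase, was at 535, 556, 600 and 524 CPM and 431, 231, 353 and 394 CPM (log2 fold change -0.65 ± 0.16, adjusted p = 0.0079), with the lowest value in germ-free library 2. plac8.1 fell 2.2-fold (log2 fold change -1.14 ± 0.19, adjusted p = 0.000789). With the tissue covariates 1 member was called.

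**Figure D4:**
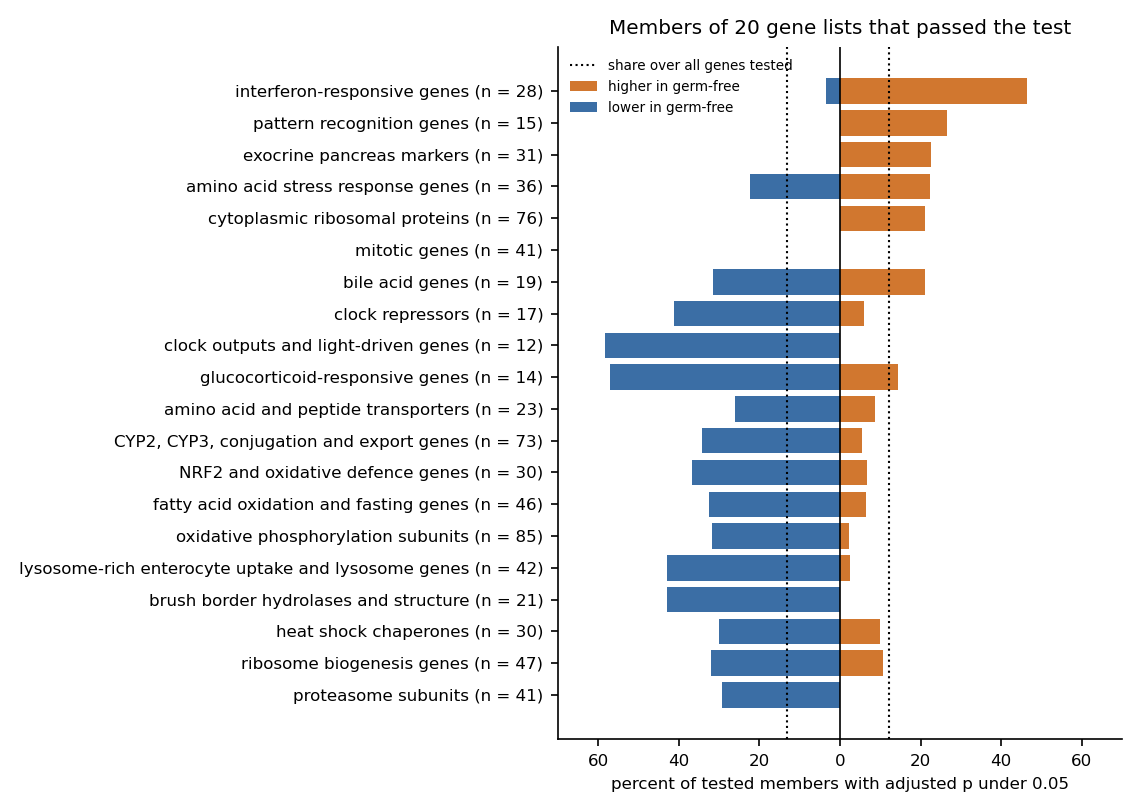
Percent of the tested members of 20 gene lists (x axis) called higher (orange, to the right) or lower (blue, to the left) in germ-free guts. Dotted lines mark the shares over all genes tested, 12.1% higher and 13.2% lower, and n is the number of members tested. Interferon-responsive genes reach farthest to the right with 13 of 28, and clock outputs farthest to the left with 7 of 12.

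Of 32 tested genes of lipid uptake and triglyceride synthesis 8 fell (25%), 1 rose (3.12%) and 23 did not pass, at a median of -0.30. With conventional library 4 left out it was 8 and 3, and with the tissue covariates 1 was called. The acyl-CoA synthetase acsl1b was at 83.1, 112, 108 and 69.6 CPM and 50.3, 44.9, 60.8 and 58.2 CPM (log2 fold change -0.80 ± 0.13, adjusted p = 0.000428). dgat1a, the last enzyme of triglyceride synthesis, the fatty acid carrier fabp1b.1 and mttp, which loads lipid onto apolipoprotein B, changed by -0.54 ± 0.1, -0.69 ± 0.14 and -0.52 ± 0.12 (adjusted p = 0.00128, 0.00242 and 0.00498), and these 3 calls ended with the tissue covariates. Sterol genes moved both ways. soat2, which esterifies cholesterol, was at 5.16, 7.76, 3.85 and 9.09 CPM and 15.1, 17.5, 27.7 and 14.1 CPM, without overlap (log2 fold change 1.52 ± 0.37, adjusted p = 0.0072), and lcat, which esterifies cholesterol on plasma lipoproteins, was at 12.8, 14.3, 8.05 and 22.2 CPM and 44.9, 57, 59 and 54.3 CPM (log2 fold change 1.91 ± 0.31, adjusted p = 0.000632). abca1b, a cholesterol exporter, was at 370, 577, 487 and 142 CPM and 118, 115, 146 and 105 CPM (log2 fold change -1.70 ± 0.29, adjusted p = 0.000789), with conventional library 4 inside the germ-free range. Over all 33 cholesterol synthesis and uptake genes 4 rose and 2 fell, a share called (18.2%) below the 25.2% of all genes.

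Bile acid genes were called in 10 of 19 cases, 6 lower (31.6%) and 4 higher (21.1%). Without the muscle libraries it was 4 and 3, and with the tissue covariates 2 and 1. slc10a2, the bile acid importer of the distal gut, was at 335, 339, 358 and 193 CPM and 137, 77.5, 190 and 140 CPM (log2 fold change -1.17 ± 0.27, adjusted p = 0.0052), and slc51a, a subunit of the basolateral bile acid exporter, was at 78.2, 72.2, 80.9 and 48.5 CPM and 42.7, 18.4, 30 and 28.4 CPM (log2 fold change -1.23 ± 0.21, adjusted p = 0.0007). Both fell without overlap. nr0b2a, a nuclear receptor that represses bile acid synthesis genes in the mouse liver, was at 287, 563, 156 and 223 CPM and 1187, 831, 691 and 638 CPM, a 2.72-fold rise (log2 fold change 1.45 ± 0.32, adjusted p = 0.00494). Enzymes of bile acid synthesis fell. They were cyp7a1, the rate-limiting one, at 156, 176.4, 232 and 91.6 CPM and 29.9, 34.7, 105 and 83.5 CPM (log2 fold change -1.37 ± 0.39, adjusted p = 0.018), cyp8b1.1 (log2 fold change -1.12 ± 0.27, adjusted p = 0.00815) and cyp27a3 (log2 fold change -0.71 ± 0.14, adjusted p = 0.00218). Synthesis is a liver function, so the difference in liver marker sums (754 to 979 against 466 to 597 CPM) stands beside these values, and its part in them was not tested. A large part of those sums comes from rbp4, described below. The call of cyp7a1 ended without conventional library 3, without germ-free library 2, and with either the tissue covariates or the muscle libraries left out.

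Retinoid genes fell in 7 of 26 cases (26.9%) and rose in 1 (3.85%). With the tissue covariates it was 3 and 1. bco1l, a carotenoid oxygenase of the family that makes retinal, was at 345, 456, 389 and 339 CPM and 228, 173, 269 and 253 CPM (log2 fold change -0.73 ± 0.15, adjusted p = 0.00221). cyp26a1, the retinoic acid hydroxylase whose level follows retinoic acid, was at 4.51, 6.01, 8.58 and 2.73 CPM and 1.98, 1.58, 1.7 and 1.67 CPM, low in all 4 germ-free libraries and spread over 2.73 to 8.58 CPM in the conventional ones (log2 fold change -1.66 ± 0.3, adjusted p = 0.00108). rbp4, the plasma retinol carrier and also a liver marker, was at 416, 357, 313 and 299 CPM and 164, 145, 169 and 174 CPM (log2 fold change -1.09 ± 0.13, adjusted p = 2.84e-05), and rbp2a, the retinol carrier of enterocytes, changed by -0.48 ± 0.15 (adjusted p = 0.0261), a call that ended without any one of 4 libraries.

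Enzymes and pumps that handle foreign compounds were mostly lower where they passed. Of 73 tested CYP2, CYP3, conjugation and export genes 25 fell (34.2%), 4 rose (5.48%) and 44 did not pass, at a median of -0.18. Without conventional library 4 the numbers were 25 and 10, and with the tissue covariates 8 and 1. The exporter abcg2a was at 4054, 5078, 3965 and 4553 CPM and 2256, 1663, 2446 and 2478 CPM (log2 fold change -1.0 ± 0.11, adjusted p = 1.68e-05). The glucuronosyltransferases ugt5a1, ugt5a3 and ugt5a4, whose reads may be shared among close copies, fell 3.39-, 6.01- and 6-fold (adjusted p = 9.71e-05, 0.000602 and 0.00078), and ugt5a3 was at 16.5, 24.2, 24.1 and 4.79 CPM and 2.94, 2.03, 3.32 and 3.27 CPM. The sulfotransferase sult1st2, the glutathione transferase gsto1 and the epoxide hydrolase ephx1 changed by -1.67 ± 0.29, -0.76 ± 0.12 and -0.62 ± 0.1. Of 30 oxidative defence genes under NRF2 11 fell (36.7%), 2 rose (6.67%) and 17 did not pass. Leaving out conventional library 4 gave 10 and 7, and with the tissue covariates 2 and 1. Glutathione synthetase gss, peroxiredoxin prdx6 and superoxide dismutase sod1 fell 1.43-, 1.54- and 1.37-fold (adjusted p = 0.000724, 0.00105 and 0.0012), and keap1b, the inhibitor of NRF2, was at 48.8, 49.8, 43.3 and 56 CPM and 70, 63.2, 72.9 and 68.6 CPM (log2 fold change 0.47 ± 0.077, adjusted p = 0.000541).

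The aryl hydrocarbon receptor binds indoles and other ligands, some of them microbial. Of 17 tested genes of this pathway 3 fell, 1 rose and 13 did not pass, a share of 23.5% beside the 25.2% of all genes. The counts were 3 and 4 without conventional library 4. cyp1a, its best known target, was at 275, 392, 158 and 212 CPM and 208, 181, 229 and 182 CPM. The groups overlapped and it did not pass (log2 fold change -0.38 ± 0.28, adjusted p = 0.34). The receptor's repressor ahrra was at 0.357, 0.102, 0.529 and 1.5 CPM and 0.0878, 0.0751, 0.0789 and 0.139 CPM (log2 fold change -2.63 ± 0.68, adjusted p = 0.00986), a gene of few counts, and nqo1 fell 2.4-fold (log2 fold change -1.26 ± 0.31, adjusted p = 0.0085). The calls of ahrra, nqo1 and of arnt2, a partner of the receptor that rose 1.58-fold (adjusted p = 0.000825), ended with the tissue covariates.

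Of 7 tested clock activators 2 rose (28.6%), bmal1a and clocka, at a median of 0.05. Of 17 repressors 7 fell (41.2%), 1 rose (cry3a) and 9 did not pass, and of 12 output or light-driven genes 7 fell (58.3%). The tissue covariates left 4 repressors and 5 outputs lower. clocka was at 16.2, 17.5, 17.4 and 24.4 CPM and 33.8, 33.2, 30.6 and 33.5 CPM (log2 fold change 0.80 ± 0.15, adjusted p = 0.00145), bmal1a changed by 0.27 ± 0.069 (adjusted p = 0.00905), and clockb did not pass (log2 fold change 0.21 ± 0.077, adjusted p = 0.0523). nr1d1, the repressor of bmal1 transcription, was at 36.9, 35.9, 20.6 and 7.38 CPM and 6.19, 5.45, 5.25 and 5.05 CPM (log2 fold change -2.20 ± 0.4, adjusted p = 0.00137). nr1d2a and per1b fell 3.28- and 3.98-fold with conventional library 4 again the lowest of its group, at 107 CPM for nr1d2a against 235 to 309 CPM and at 8.67 CPM for per1b against 25.6 to 42 CPM in libraries 1 to 3. The outputs nfil3-6 and tefa were at 117, 130, 86.3 and 65.2 CPM and 47.1, 51.6, 40.3 and 30.6 CPM in conventional libraries and at 17.6, 15.7, 15 and 10.8 CPM and 13.4, 12, 15.6 and 21 CPM in germ-free libraries (log2 fold change -2.76 ± 0.26, adjusted p = 5.21e-06 and log2 fold change -1.45 ± 0.18, adjusted p = 8.7e-05). Light-driven DNA repair genes were lower as well, cry5 by 3.34-fold and cry-dash by 1.94-fold (adjusted p = 2.74e-07 and 0.000479), and for both conventional library 4 was the lowest of its group but above every germ-free value. per2, which light induces, changed by -0.56 ± 0.13 and lonrf1 by -0.93 ± 0.14 (adjusted p = 0.00553 and 0.000286). Levels of these genes cycle over the day, and with no time of dissection in the labels a difference in hour and a difference in rearing cannot be told apart.

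Glucocorticoid-responsive genes were called in 10 of 14 cases, 8 lower (57.1%) and 2 higher (14.3%), at a median of -0.93. With the tissue covariates 5 were lower. tsc22d3, a classical target of the receptor, was at 165, 175, 125 and 83.9 CPM and 60.9, 56.4, 58.3 and 42.8 CPM (log2 fold change -1.33 ± 0.22, adjusted p = 0.000594). hsd11b2, which inactivates cortisol, was at 97.1, 77.9, 88.1 and 37 CPM and 34.6, 33.7, 28.5 and 32.8 CPM (log2 fold change -1.21 ± 0.23, adjusted p = 0.00156), and fkbp5, a co-chaperone of the receptor, was at 574, 648, 476 and 60 CPM and 56.3, 108, 46.5 and 37.6 CPM (log2 fold change -2.82 ± 0.65, adjusted p = 0.0065). In both, conventional libraries 1 to 3 were high. Library 4 was just above the germ-free range for hsd11b2 and inside it for fkbp5. zbtb16a and pfkfb4b fell 3.68- and 3.31-fold (log2 fold change -1.88 ± 0.38, adjusted p = 0.00235 and log2 fold change -1.73 ± 0.37, adjusted p = 0.00386), also with library 4 inside the germ-free range. sgk1, a kinase that the same hormones induce, was arranged otherwise. It was at 325, 376, 429 and 432 CPM and 183, 173, 207 and 161 CPM, with library 4 the highest of all (log2 fold change -1.11 ± 0.16, adjusted p = 0.000181). The 2 genes that rose were nr3c1, the receptor itself, and sgk2a.

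Interferon-responsive genes that passed were mostly higher. Of 28 tested 13 rose (46.4%), 1 fell (3.57%) and 14 did not pass, at a median of 0.80, and without conventional library 4 it was 19 and 1 at a median of 1.01. Without the muscle libraries, of which germ-free library 2 is 1, it was 6 and 1 at a median of 0.76, and with the tissue covariates 6 rose. The groups overlapped in the mean log2 CPM of the list. Conventional library 4 (3.094) lay inside the germ-free range (2.849 to 3.904), and conventional libraries 1 to 3 were at 2.108, 2.196 and 2.195. stat1b, a transcription factor of the pathway, was at 0.357, 0.786, 0.416 and 4.3 CPM and 9.92, 23.8, 50.4 and 11.6 CPM (log2 fold change 4.03 ± 0.9, adjusted p = 0.00503), and stat2 at 18.1, 18, 19.3 and 46 CPM and 59, 78.4, 76.3 and 52.7 CPM (log2 fold change 1.39 ± 0.3, adjusted p = 0.00407). In both, conventional library 4 was the highest of its group and germ-free libraries 2 and 3 were the highest of all. Genes of large rise that are known to respond to interferon but are not in the list gave the same order. ifi27.2 was at 0.909, 1.3, 0.718 and 2.8 CPM and 13.9, 23.1, 32.8 and 10.6 CPM and ifi27.3 at 0.974, 0.922, 0.68 and 1.22 CPM and 4.35, 8.67, 10.2 and 4.84 CPM, with 14- and 7.35-fold rises (adjusted p = 0.00103 and 0.000632) that may share reads. rnf213b, a large ubiquitin ligase, was at 1.46, 3.62, 2.57 and 5.53 CPM and 10.8, 20.9, 45.7 and 8.74 CPM (log2 fold change 2.71 ± 0.6, adjusted p = 0.00485). The antiviral effector mxe, the helicase mov10b.2, the RNA sensor ifih1, the RNA-dependent kinase eif2ak2 and parp12a rose 4.69-, 4.79-, 1.7-, 1.97- and 1.95-fold (adjusted p = 0.013, 0.00264, 0.00568, 0.00124 and 0.00192). Germ-free library 3 had the highest level of all 5, and the call of mxe ended without it.

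Of 15 tested pattern recognition genes, which sense microbes, 4 rose (26.7% beside the 12.1% of all genes) and 11 did not pass. The number was 7 without conventional library 4, without the muscle libraries 2 and with the tissue covariates 1. The adaptor ticam1 was at 14.1, 15.5, 15 and 16.6 CPM and 23.9, 22.6, 21.2 and 23.3 CPM, without overlap (log2 fold change 0.57 ± 0.079, adjusted p = 0.000152). irak4, myd88 and tlr5b, the flagellin receptor, changed by 0.37 ± 0.094, 0.39 ± 0.11 and 0.45 ± 0.14 (adjusted p = 0.00886, 0.012 and 0.0261), and the call of tlr5b ended without any one of 4 libraries. nod2 did not pass (log2 fold change 0.39 ± 0.19, adjusted p = 0.133), and did without conventional library 4 (0.60, adjusted p = 0.0133). pglyrp6, a peptidoglycan recognition protein, was at 11, 5.16, 7.29 and 13.3 CPM and 21.5, 14.1, 14.2 and 22.1 CPM (log2 fold change 0.96 ± 0.33, adjusted p = 0.0406), a call that ended without any one of 5 libraries.

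Of 25 tested NF-kB and inflammatory genes 2 rose, 2 fell and 21 did not pass, a share of 16% against 25.2% of all genes. The counts were 6 and 1 without conventional library 4, at a median of 0.22 in place of 0.07. In that fit 36.6% of all genes were called. The mean log2 CPM of the list was higher in conventional library 4 (3.552) than in any germ-free library (3.068 to 3.211). The chemokine cxcl18b was at 1.17, 1.4, 0.945 and 2.41 CPM and 4, 4.58, 3.39 and 4.53 CPM (log2 fold change 1.47 ± 0.43, adjusted p = 0.0195), a call lost without conventional library 1 or 3, and cxcl20 did not pass (log2 fold change 0.69 ± 0.25, adjusted p = 0.0527) except without conventional library 4 (1.04, adjusted p = 0.00166). rela, a subunit of NF-kB, rose 1.22-fold (adjusted p = 0.016; lost without conventional library 3), and nfkbiab, the inhibitor that NF-kB induces, fell 1.54-fold (log2 fold change -0.62 ± 0.15, adjusted p = 0.00683). il1b did not pass, at 0.552, 0.922, 0.567 and 1.47 CPM and 0.659, 1.01, 0.632 and 0.557 CPM. Of 30 tested JAK-STAT and SOCS genes 7 rose (23.3%) and 3 fell (10%), against 14 and 2 without conventional library 4 and 2 and 1 without the muscle libraries. For this list too the mean log2 CPM of conventional library 4 (4.41) was above that of every germ-free library (4.109 to 4.353). The suppressors of cytokine signalling socs1a and socs3a fell: socs1a was at 19.1, 11.2, 15.5 and 43 CPM and 7.33, 7.96, 10.2 and 7.17 CPM (log2 fold change -1.44 ± 0.34, adjusted p = 0.00599), and socs3a at 85.9, 60.4, 122 and 302 CPM and 39.7, 39, 75.4 and 31.1 CPM (log2 fold change -1.62 ± 0.52, adjusted p = 0.0316). Conventional library 4 was the highest for both, and without it the log2 fold change of socs3a was -0.92 and it did not pass (adjusted p = 0.138). Its call also ended without conventional library 3 or germ-free library 1, 2 or 4. Receptor and kinase genes of the JAK-STAT pathway rose by less, il6st, jak2a and il10rb by 0.35 ± 0.1, 0.40 ± 0.11 and 0.25 ± 0.074 on the log2 scale, and the 3 calls ended without conventional library 3. il22 itself had 4, 1, 18 and 17 counts in conventional libraries and 0, 5, 2 and 0 in germ-free ones, under the filter for the fit. The germ-free mean was lower by a difference of -0.293 CPM, which an exact permutation test, two-sided, did not separate from the spread (p = 0.2, where 0.0286 is the smallest p that 4 against 4 allows).

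NADPH oxidase genes were few. nox1 was at 2.63, 1.74, 2.38 and 9.23 CPM and 8.52, 11, 7.74 and 8.04 CPM, with conventional library 4 inside the germ-free range (log2 fold change 1.14 ± 0.4, adjusted p = 0.044; 2.0 without that library). Its call ended without any one of the other 7 libraries. cyba, a shared oxidase subunit, fell 1.22-fold (adjusted p = 0.044), a call that 7 of the 8 left-out libraries ended. Complement and terminal pathway genes fell in 5 of 17 cases (29.4%) and rose in 1 (5.88%). Leaving out conventional library 4 gave 3 and 1. c3b.2 was at 5.23, 5.19, 5.63 and 8.92 CPM and 1.23, 1.61, 0.0395 and 0.313 CPM (log2 fold change -2.97 ± 0.85, adjusted p = 0.0184), its neighbour c3b.1 fell 5.17-fold, and c8a, vtna and vtnb changed by -2.82 ± 0.91, -2.72 ± 0.72 and -2.75 ± 0.97 (adjusted p = 0.0302, 0.0121 and 0.0473). All 5 calls ended with the tissue covariates, and those of c8a and vtnb also without conventional library 4. vtna is itself a member of the liver list whose score is a covariate, so its loss there was partly built in. These are liver-made proteins, and gc, the vitamin D carrier of plasma and itself a member of the liver list, moved likewise (log2 fold change -2.16 ± 0.76, adjusted p = 0.0474). The liver marker sums of 754 to 979 CPM and 466 to 597 CPM stand beside these values, and a large part of them comes from rbp4. c4b rose 2.86-fold (adjusted p = 0.0169), lost without conventional library 1 or 3.

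Few immune cell genes passed. Of 22 lymphoid genes tested 2 fell (9.09%), of 15 macrophage genes 1 fell (6.67%) and of 21 neutrophil genes 5 fell (23.8%), beside the 13.2% of all genes that fell. For lymphoid and neutrophil genes 1 and 3 fell without conventional library 4. The counts table held 34 lymphoid, 25 macrophage and 25 neutrophil genes of these lists, and those below the filter were not tested. Among them mpeg1.1 of macrophages and cd8a and lck of lymphoid cells were at 0 CPM in all wild type libraries. The counts of calls do not cover such genes. The gut-homing chemokine receptor ccr9a was at 9.74, 12.6, 16.5 and 18.6 CPM and 6.1, 5.14, 8.33 and 7.52 CPM (log2 fold change -1.08 ± 0.28, adjusted p = 0.00923), and the chemokine receptor cxcr4b at 3.08, 3.42, 2.61 and 3.99 CPM and 1.93, 1.54, 1.7 and 1.57 CPM (log2 fold change -0.96 ± 0.19, adjusted p = 0.002). Both fell without overlap. ncf1, an oxidase subunit of phagocytes, was at 41.9, 45.2, 43 and 25.5 CPM and 20.1, 17.8, 19.9 and 20.8 CPM (log2 fold change -0.98 ± 0.19, adjusted p = 0.00197), and scinlb, an actin-severing protein, fell 1.23-fold (adjusted p = 0.0125). mpx, the myeloperoxidase that defines neutrophils, did not pass, at 11.1, 2.56, 2.49 and 23.3 CPM and 3.95, 6.57, 4.26 and 3.76 CPM, with the highest value in conventional library 4.

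Of 36 amino acid stress genes 8 rose (22.2%), 8 fell (22.2%) and 20 did not pass. Without the muscle libraries it was 5 and 5, and with the tissue covariates 3 and 4. nupr1b, a stress-induced chromatin protein, was at 91.5, 141, 85.4 and 99.9 CPM and 360, 405, 232 and 288 CPM (log2 fold change 1.62 ± 0.25, adjusted p = 0.0004), and igfbp1b, a secreted binder of insulin-like growth factors that starvation induces, at 67.5, 60.2, 66.5 and 117 CPM and 282, 300, 255 and 293 CPM (log2 fold change 1.86 ± 0.24, adjusted p = 0.00014). Both rose without overlap. atf4a and ddit3, which act in this response and in endoplasmic reticulum stress, rose 1.32- and 1.37-fold (adjusted p = 0.000152 and 0.00116). Of these genes igfbp1b, atf4a and ddit3 are not members of the amino acid stress list. Among its members pycr1b, of proline synthesis, and the alanyl-tRNA synthetase aars1 rose 1.74- and 1.22-fold (adjusted p = 0.00137 and 0.0051). The 8 members that fell were aldh18a1, cars1, chac1, ddit4, gpt, phgdh, slc1a5 and slc3a2b. Of 38 tested endoplasmic reticulum stress genes 4 rose (10.5%) and 6 fell (15.8%), with atf4b among those that fell. Of 30 heat shock chaperones 9 fell (30%), 3 rose (10%) and 18 did not pass, against 10 and 6 without conventional library 4 and 2 and 1 with the tissue covariates. The mitochondrial chaperones hspa9, hspd1 and hspe1 fell 1.8-, 1.89- and 1.49-fold (adjusted p = 0.000817, 0.00501 and 0.000825), the last 2 calls lost with the tissue covariates, while the cytosolic co-chaperone dnajb1b was at 8.73, 9.74, 11 and 13.2 CPM and 16.6, 19, 15.6 and 18.4 CPM (log2 fold change 0.71 ± 0.11, adjusted p = 0.000485). serpinh1b, the collagen chaperone of the endoplasmic reticulum, was at 0.519, 0.854, 1.96 and 5.49 CPM and 8.61, 9.46, 12.3 and 10.4 CPM (log2 fold change 2.21 ± 0.53, adjusted p = 0.00755). Further genes of large rise were cd9r, at 5.19, 5.09, 4.19 and 6.09 CPM and 15.4, 24.4, 35.9 and 15.2 CPM (log2 fold change 2.14 ± 0.33, adjusted p = 0.000464), and aste1a, at 2.04, 1.81, 2.31 and 5.21 CPM and 16.7, 7.59, 29.9 and 11.9 CPM (log2 fold change 2.54 ± 0.54, adjusted p = 0.00385).

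None of 41 mitotic genes passed edgeR's test or DESeq2's, 2 were higher at an unadjusted p under 0.05 by edgeR, and their median was 0.41. Of 45 DNA replication genes 2 rose and 1 fell, a share of 6.67% beside the 25.2% of all genes, with mcm7 up by 1.64-fold (adjusted p = 0.0066; lost without the muscle libraries) and rfc2 by 1.31-fold (adjusted p = 0.0185; lost without conventional library 2 or 3 or germ-free library 1). Of 76 cytoplasmic ribosomal proteins 16 rose (21.1%) and 60 did not pass, at a median of 0.14, and 45 rose without conventional library 4. With size factors as in DESeq2 9 rose, and with the tissue covariates 0 were called. Such a shift is small: rps29, one of the clearest, was at 845, 930, 852 and 897 CPM and 1048, 934, 993 and 1006 CPM (log2 fold change 0.18 ± 0.051, adjusted p = 0.0175), and when libraries were scaled by their totals alone its call ended. It also ended without conventional library 1 or 3 or germ-free library 1. Ribosome biogenesis genes fell in 15 (31.9%) and rose in 5 (10.6%) of 47 cases. The counts were 25 and 5 without conventional library 4 and 4 and 4 without the muscle libraries, and with the tissue covariates the called members were 4 that rose. The mean log2 CPM of the list was 6.291, 6.536, 6.345 and 5.693 in the conventional libraries and 5.875 to 6.136 in the germ-free ones. Conventional library 4 was thus below every germ-free library. utp18 was at 15.1, 18.2, 14.5 and 15.4 CPM and 25.4, 25, 25.3 and 23.2 CPM (log2 fold change 0.65 ± 0.079, adjusted p = 4.94e-05), nop14 and the helicase ddx21 rose 1.34- and 1.37-fold (adjusted p = 0.000844 and 0.00136), and the helicase ddx56 was at 55.3, 65.8, 55.6 and 32.7 CPM and 38.2, 33.8, 26.8 and 31.5 CPM (log2 fold change -0.69 ± 0.16, adjusted p = 0.00627) with conventional library 4 inside the germ-free range. Proteasome subunits fell in 12 of 41 cases (29.3%), psmc1a and psmd4b by 1.36- and 1.33-fold (adjusted p = 0.00472 and 0.00336). With the tissue covariates 0 of the 41 were called.

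Immediate early genes fell in 5 of 35 cases (14.3%), near the 13.2% of all genes. myca, a MYC-family transcription factor, was at 40.4, 42.9, 43.8 and 54.1 CPM and 14.8, 17.2, 18.8 and 16.4 CPM, apart in every library (log2 fold change -1.43 ± 0.19, adjusted p = 0.000135). klf6a was at 149, 104, 113 and 113 CPM and 71.1, 76.6, 79.7 and 74.8 CPM (log2 fold change -0.66 ± 0.15, adjusted p = 0.00507), and jdp2b, a partner of AP-1, and ccn1, a matrix protein of this early response, changed by -2.02 ± 0.58 and -1.70 ± 0.53 (adjusted p = 0.0176 and 0.0276). The calls of jdp2b and ccn1 ended without conventional library 3, and that of ccn1 also without conventional library 1 or germ-free library 1 or 4.

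Because the study is about motility, the genes of gut muscle, neurons and hormone cells bear naming. Of 21 smooth muscle genes 5 fell (23.8%), 2 rose (9.52%) and 14 did not pass, and without the muscle libraries 3 fell. Their summed level was highest in conventional library 1, at 5101 CPM against 2693 to 4240 CPM in the other 7, the library that also had the highest skeletal muscle markers. acta2, smooth muscle actin, was at 2160, 1547, 1728 and 1516 CPM and 970, 1305, 1233 and 1204 CPM, without overlap (log2 fold change -0.56 ± 0.12, adjusted p = 0.00265), the light chain myl9b fell 1.37-fold (adjusted p = 0.00796) and the heavy chain myh11a 1.42-fold (adjusted p = 0.0148), the last lost without conventional library 1 or 3 or germ-free library 1. Of 27 enteric neuron and glia genes 2 fell and 25 did not pass, a share of 7.41%, at a median of -0.38. slc18a3a, the vesicular acetylcholine transporter, was at 1.91, 3.01, 3.17 and 3.78 CPM and 0.483, 1.77, 1.89 and 1.43 CPM (log2 fold change -1.08 ± 0.34, adjusted p = 0.028), a call lost without any one of 5 libraries, conventional library 4 among them, and stmn2a and the neuropeptide gene vipb did not pass (log2 fold change -0.56 ± 0.21, adjusted p = 0.0578 and log2 fold change -0.52 ± 0.2, adjusted p = 0.0629). Of 37 enteroendocrine genes 2 fell and 35 did not pass, a share of 5.41%. calca, a calcitonin gene, was at 2.82, 1.91, 1.78 and 0.42 CPM and 0.439, 0.864, 0.671 and 0.661 CPM (log2 fold change -1.39 ± 0.48, adjusted p = 0.0402), lost without any one of 6 libraries, and tph1b, of serotonin synthesis, did not pass (log2 fold change -1.03 ± 0.41, adjusted p = 0.0737). Of 29 junction genes 3 rose (10.3%) and 4 fell (13.8%), shares near the 12.1% and 13.2% of all genes, and without conventional library 4 it was 9 and 3. The scaffold tjp3 was at 102, 92.8, 102 and 142 CPM and 164, 154, 167 and 171 CPM (log2 fold change 0.58 ± 0.11, adjusted p = 0.00133), occludin oclna rose 1.34-fold (adjusted p = 0.0132; lost without conventional library 3), and claudin cldn3c was at 175, 121, 143 and 115 CPM and 74.6, 100, 91.2 and 83.7 CPM (log2 fold change -0.66 ± 0.13, adjusted p = 0.002).

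The effect of rearing could be set against that in il22 knockout guts, which share no library with the wild type comparison. In the knockout libraries il22 had 5, 1, 9 and 4 counts in conventional and 0, 1, 1 and 1 counts in germ-free guts, and since the labels do not say which bases the knockout lacks, such counts do not check it. There 3066 genes were called (27.2%). The difference between the genotypes was called for 50 genes (0.444%). The 5 of largest difference, by the rule used, were fthl28, cyp1a, cyp26a1, atp1a1a.3 and crtac1a. crtac1a fell in both genotypes and by more in the wild type, with log2 fold changes of -4.08 ± 0.18 and -2.21 ± 0.17 (interaction adjusted p = 0.00263). cyp26a1 fell in the wild type and did not pass in the knockout (-1.66 ± 0.3 and 0.78 ± 0.33, interaction adjusted p = 0.0184). cyp1a did not pass in the wild type and fell in the knockout (-0.38 ± 0.28 and -2.82 ± 0.3, interaction adjusted p = 0.0175). The ferritin gene fthl28 and the sodium pump subunit atp1a1a.3 did not pass in the wild type and rose in the knockout, with -0.17 ± 0.39 and 3.14 ± 0.41 for the former and 0.10 ± 0.31 and 2.53 ± 0.39 for the latter (interaction adjusted p = 0.0175 and 0.0325). Among the genes described above, sdhb (-0.95 ± 0.063 and -0.52 ± 0.063), cry5 (-1.74 ± 0.14 and -0.67 ± 0.14), rbp4 (-1.09 ± 0.13 and -0.21 ± 0.12), cyp8b1.1 (-1.12 ± 0.27 and 0.75 ± 0.27) and alp3 (-0.44 ± 0.12 and 0.46 ± 0.12) also differed (interaction adjusted p = 0.0324, 0.0184, 0.0286, 0.0363 and 0.0184). For alp3 and cyp8b1.1 the direction was opposite, lower in germ-free wild type and higher in germ-free knockout guts. The number of genes called for this difference rested on single libraries. It was 989 without conventional wild type library 4, at most 54 without any one of the other 15 libraries, and 7 without conventional knockout library 2.

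**Figure D5:**
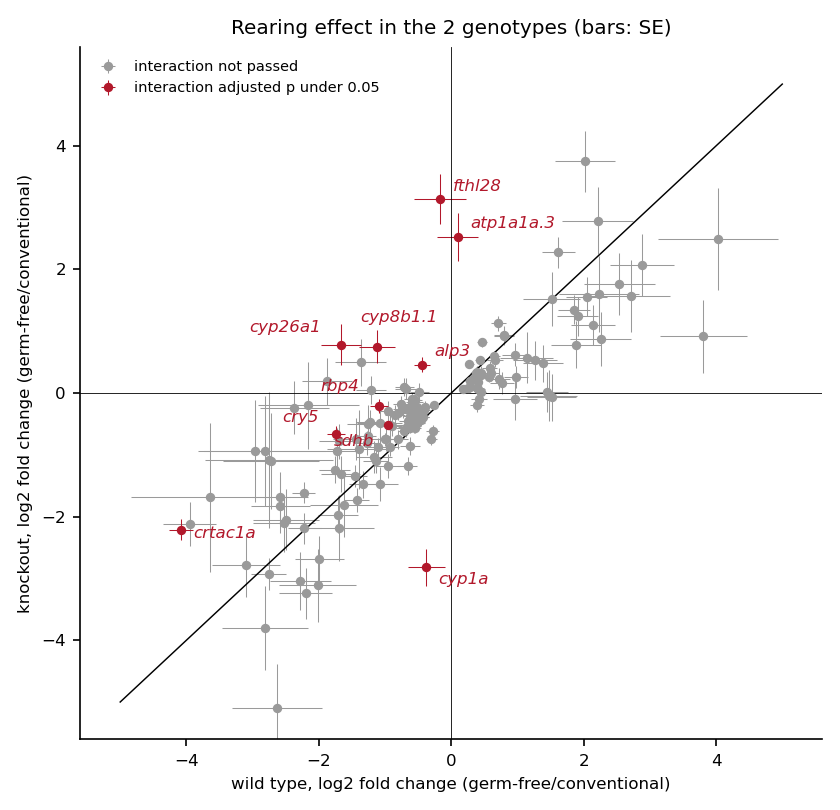
Log2 fold change of germ-free over conventional guts in the wild type (x axis) and in the il22 knockout (y axis) for the named genes called in the wild type or in the test of the difference, with SE bars and the line of equal change. Genes whose difference between genotypes passed are in red, with fthl28, atp1a1a.3 and cyp1a near 0 on the wild type axis and crtac1a at -4.08.

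In the knockout 21 of 35 immediate early genes and 15 of 45 DNA replication genes fell, against 5 and 1 in the wild type. For the interferon list 6 of 28 rose in the knockout against 13. Of 47 ribosome biogenesis genes 15 rose in the knockout, against 5 that rose and 15 that fell in the wild type. Over all genes 27.2% were called in the knockout in either direction. The knockout shares by direction were not counted, so these list counts have no share of all genes beside them. The difference between genotypes, tested gene by gene with edgeR, passed at an adjusted p under 0.05 for 0 of the members of these lists, and at an unadjusted p under 0.05 for 7 immediate early (20%), 9 DNA replication (20%), 4 interferon-responsive (14.3%) and 25 ribosome biogenesis genes (53.2%), beside 1679 of all 11254 genes (14.9%). It was not tested with another tool.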

How the data were processed

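RNA of pooled, dissected larval guts was made into stranded mRNA libraries and read as pairs of 100 bases, per the labels' protocols. The authors deposited raw read counts per gene and TPM, which divides counts by gene length and library total, for each library. Reads were checked with FastQC 0.11.8 and aligned to danRer11, per the submitters' processing notes; which aligner, counter and strand setting were used is not given in the sources used here, so antisense or overlapping genes may share reads. Of 15419 gene names in the table, 14311 were current RefSeq symbols (GRCz12tu), 909 were older names that were updated and 199 were kept as they stood.

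The deposited counts of all 20 libraries of the second experiment (5 groups) were fitted together with edgeR 4.0.16 (TMM scaling, filterByExpr by group, robust quasi-likelihood F test) in R 4.3.3. The wild type and knockout rearing effects and their difference were contrasts of that fit, with Benjamini-Hochberg adjustment over all 11254 genes tested. The SE of a fold change was taken from its F value. The fit was also run on simulated counts with known changes. These were drawn gene by gene from common means, with no shifted library and no RNA of neighbouring tissues. That run therefore does not check the calls against such features of these libraries. A list score is the mean log2 (CPM + 0.5) of its tested members. il22 was below the filter and was compared by an exact permutation test. Because the labels do not say that pools came from separate clutches, p-values measure only the spread between pools.

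Alternatives were other scalings (size factors as in DESeq2, upper quartile, library totals), other filters, other sets of groups, DESeq2 1.42.0, limma 3.58.1 on log2(TPM + 1) and log2(TPM + 0.1), the replicate number as a block, marker scores as covariates, and leaving out libraries. Leaving out conventional library 4 for list counts, leaving it out together with the muscle libraries, and using 1 mean score as covariate were chosen after seeing the data. The members and lists were chosen with earlier results of these data known. The genes named are the 15 of largest rise and 15 of largest fall (called, without overlap, at least 5 CPM in the higher group), up to 5 of smallest p per list, defining list members such as cyp7a1, fkbp5, fabp10a, il1b and mpx, and the 5 of largest difference between genotypes. Names given without values were chosen after their values were seen, and counts and plots of named genes cover those given with values. The libraries of the first experiment were not used here.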

Additional observations from a re-analysis of the deposited data

Results flagged for a closer look

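In 23 of 348 comparisons of 4 libraries (genes named above and marker scores), 1 library lay far outside the other 3 of its group. About 1 in 20 groups of independent, normally distributed values would pass the cut-off used. The genes here were chosen from these data and share the same libraries, so the number of cases cannot be read against that rate. Conventional library 4 was the outlying library in 17 cases. It was the highest of its group for aste1a (5.21 CPM), c3b.2 (8.92 CPM), clocka (24.4 CPM), cxcl20 (16.9 CPM), gc (15.4 CPM), igfbp1b (117 CPM), nox1 (9.23 CPM), parp12a (16.1 CPM), rela (20 CPM), stat1b (4.3 CPM), stat2 (46 CPM), vtnb (23.5 CPM) and the liver marker score (4.155 on the log2 scale). It was the lowest for ncf1 (25.5 CPM), psmd4b (19.1 CPM), slc10a2 (193 CPM) and zbtb16a (1.99 CPM). For c3b.2, gc, vtnb and the liver score this placed it farther from the germ-free libraries than the other 3, and for the other 13 nearer to them.

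Germ-free library 2 was the lowest of its group for gsto1 (90.4 CPM) and sod1 (171 CPM) and the highest for gc (4.24 CPM). Germ-free library 1 was the highest for vtnb (8.91 CPM), germ-free library 4 the lowest for utp18 (23.2 CPM), and conventional library 1 the highest for the skeletal muscle score (5.434 on the log2 scale).

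The rearing effect differed between genotypes by edgeR's test of the difference for 10 of the genes named. Whether each of these 10 calls held with libraries left out was not tested. On the log2 scale, wild type minus knockout, it was -0.90 for alp3, -2.43 for atp1a1a.3, -1.87 for crtac1a, -1.07 for cry5, 2.44 for cyp1a, -2.44 for cyp26a1, -1.87 for cyp8b1.1, -3.31 for fthl28, -0.88 for rbp4 and -0.43 for sdhb.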

How the results depend on the processing

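No gene called both with the reported settings and under another setting changed direction in any of the settings tried for the wild type comparison, and of the 154 called genes named above 127 kept their call when any 1 wild type library was left out and 80 kept it under every setting. In place of 2838 calls (1357 higher, 1481 lower) there were 1270 (579 and 691) with the 2 wild type groups fitted alone, 1814 (868 and 946) without the 3 muscle libraries and 656 (335 and 321) with the 2 tissue covariates, under which 66 of the 154 lost their call; the cause was not tested. With the mean of the liver and pancreas scores as 1 covariate it was 2751 (1287 and 1464). Scaling by totals gave 894 higher and 1535 lower (36.8% higher in place of 47.8%). limma on log2(TPM + 1) gave 665 higher and 1913 lower (25.8% higher), and with 0.1 in place of 1 it gave 654 and 1896 (25.6%). With the replicate block 2854 genes were called (1411 and 1443), 3046 in the knockout and 56 for the difference between genotypes. Same-numbered conventional and germ-free libraries correlated in their deviations from the group means at -0.431, -0.344, 0.245 and 0.0705, and not every library correlated best with its own number. Conventional library 1 and germ-free library 2, both high in skeletal muscle markers, correlated at 0.615. Deviations from a mean of 4 libraries also constrain each other. These values therefore cannot show whether the numbers pair the libraries. Leaving out 1 library gave 1695 to 4154 calls in the wild type (732 to 2324 higher, 873 to 1830 lower), 2350 to 2700 in the knockout and 7 to 989 for the difference between genotypes. That difference gave 82 calls with the co-housed group left out and 13 without the muscle libraries. The il22 difference was -8.25 in raw counts (exact permutation p = 0.2) and -0.402 to -0.186 CPM with 1 library left out. Directions reversed for genes that had not passed: fthl28 (0.0637 with the tissue covariates and 0.16 without the muscle libraries and conventional library 4), atp1a1a.3 (-0.036 to 0.424 with 1 library left out, the former without conventional library 4), fabp10a (0.50 with the tissue covariates), il1b (-0.491 to 0.104 with 1 library left out, the latter without conventional library 4) and mpx (0.66 without the muscle libraries and conventional library 4). Since fabp10a is a member of the liver list whose score is a covariate, its reversal there was partly built in. Depth limits genes of few counts such as il22 and ahrra, and 4 pools a group limit the rest.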
